A study of Mus musculus with 4 samples.

Results

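T-type calcium channels and HCN channels are the ion channels that let a neuron fire in bursts and in rhythm. T-type channels open at voltages near rest, but only after a hyperpolarisation has removed their inactivation, and their brief calcium current then carries a cluster of sodium spikes. HCN channels open on hyperpolarisation, pass an inward cation current that brings the membrane back toward threshold, and open more readily when cyclic AMP binds them. In rodents, burst firing in the lateral habenula, an epithalamic nucleus that carries aversive signals to monoamine neurons of the midbrain, has been linked to depression-like states.

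The 6 genes described here were chosen by name. They are the T-type pore subunit genes Cacna1g, Cacna1h and Cacna1i and the HCN subunit genes Hcn2, Hcn3 and Hcn4, each matched by its Ensembl identifier, and they are 6 of the 53465 gene identifiers in the count table. All 6 passed the filter on low counts, as did 17528 genes in all. RNA came from dissected lateral habenula of C57BL/6 mice, with 2 libraries from socially isolated and 2 from group-housed animals. The age and sex of the mice and the duration of isolation are not stated in the labels. Whether a library stands for 1 animal or a pool is not stated either, so p-values cover only the spread between these samples, and that spread may be technical.

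The libraries held 20897605 to 26428152 counts. All 10 lateral habenula markers checked were expressed, with Gpr151, an orphan receptor gene of the habenula, at 425 and 426 CPM in isolated and 396 and 352 CPM in group-housed libraries (CPM scales each count to a common library total). The list had no common direction, since 5 of the 10 had higher and 5 lower means in isolated libraries. Markers of neighbouring tissue were present in every library, and the 3 lists whose median level differed most within a group were those of ependyma, choroid plexus and thalamus. The 8 ependymal markers tested summed to 79.2 and 159 CPM in isolated and 76.1 and 70.6 CPM in group-housed libraries. The 8 choroid plexus markers tested summed to 59.0 and 70.4 CPM in isolated and 37.7 and 149 CPM in group-housed libraries. The 14 thalamus markers tested summed to 1553 and 1327 CPM in isolated and 1525 and 1649 CPM in group-housed libraries. In tissue RNA of this kind, fewer cells of a type and less RNA per cell cannot be told apart.

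Upstream DNA of 3 of the 6 genes is shown as the letters before their annotated RefSeq starts. It covers the 250 bases before the RefSeq start on GRCm38.p6, plus strand, at chr10:79716384-79716633 for Hcn2, chr9:58822699-58822948 for Hcn4 and chr15:80286988-80287237 for Cacna1i. The windows of Hcn2 and Cacna1i end where the gene positions given below begin. That of Hcn4 ends short of its gene position, which begins at 58823412. Where the counted transcripts start was not tested. Hcn2 and Hcn4 are also the HCN genes whose libraries separated in opposite directions below, and Cacna1i is the T-type gene matched in the RefSeq table. Capitals mark matches, on either strand, to the GC box GGGCGG, which is bound by factors of the Sp family, and to TGACG, one arm of the cyclic AMP response element.
Hcn2: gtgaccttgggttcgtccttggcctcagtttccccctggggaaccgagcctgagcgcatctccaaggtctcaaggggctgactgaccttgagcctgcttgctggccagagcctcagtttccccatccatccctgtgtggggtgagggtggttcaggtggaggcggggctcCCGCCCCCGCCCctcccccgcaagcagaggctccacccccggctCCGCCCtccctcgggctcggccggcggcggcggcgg
Hcn4: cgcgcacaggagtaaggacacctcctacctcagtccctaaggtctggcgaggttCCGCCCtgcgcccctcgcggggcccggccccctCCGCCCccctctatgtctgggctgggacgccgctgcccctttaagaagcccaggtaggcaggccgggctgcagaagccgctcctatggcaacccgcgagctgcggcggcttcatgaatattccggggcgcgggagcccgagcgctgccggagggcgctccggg
Cacna1i: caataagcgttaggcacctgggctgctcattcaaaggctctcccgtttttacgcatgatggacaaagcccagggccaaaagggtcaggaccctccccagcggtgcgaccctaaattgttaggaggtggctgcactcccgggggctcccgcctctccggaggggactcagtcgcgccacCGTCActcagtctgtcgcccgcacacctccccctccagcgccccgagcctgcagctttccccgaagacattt

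These windows were rich in G and C, at 70.4% for Hcn2, 71.2% for Hcn4 and 62.4% for Cacna1i, against a median of 52.4% over 32851 RefSeq promoters. Hcn2 held 3 GC boxes, Hcn4 held 2 and Cacna1i held 0, and 32.74% of all promoters held at least 1. The arm TGACG stood once in Cacna1i and not in the others, and 17.77% of all promoters held it. The full element TGACGTCA (1.55% of all promoters) and the TATA box TATAAA (12.37%) were in none of the 3 windows. These matches describe letters in a window and were not tested as binding sites.

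All 6 genes were expressed at levels well above the counting floor, and none of them passed the test of isolated against group-housed libraries. In edgeR's quasi-likelihood test over all genes, 0 of the 6 passed as higher (0.0114% of all tested genes did) and 0 as lower (0% of all). At an unadjusted p under 0.05 there were 0 of the 6 in either direction, beside 2.83% of all tested genes higher and 2.26% lower. That 0 moved under 4 of the alternatives run, always as lower in isolated libraries. Cacna1g passed it with no low-count filter (1.94% of all genes lower) and without isolated replicate 1 (4.33%), Hcn2 with a minimum mean of 5 CPM (2.65%), and both with the replicate number as a block (3.9%). DESeq2 called 0 of the 6 (0.24% of all genes higher, 0.0628% lower), limma-voom 0 (0.0114% and 0%) and edgeR's exact test 0 (0.382% and 0.0856%). Of the 6 genes, 3 had higher and 3 lower means in isolated libraries, and log2 fold changes ran from -0.16 to 0.09 around a median of -0.05, beside a median of 0.0033 over all tested genes. Fold changes are isolated over group-housed.

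**Figure D1:**
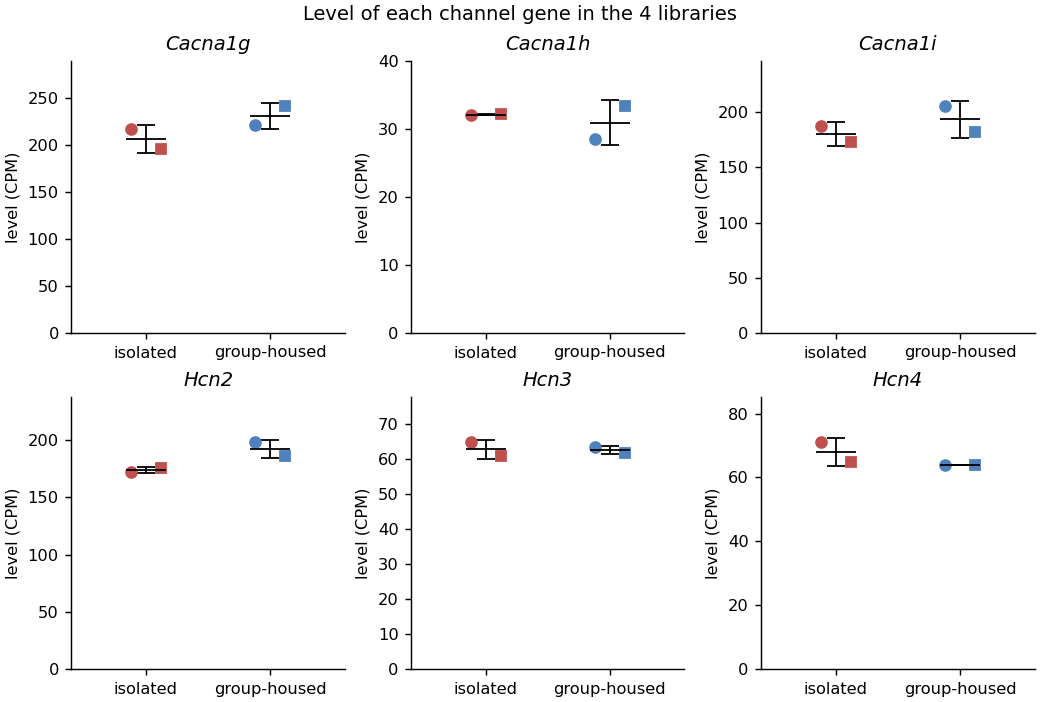
Level of each channel gene in CPM (vertical axes from 0) in isolated (red) and group-housed (blue) libraries. Circles are replicate 1 and squares replicate 2 of a group, horizontal bars are group means and whiskers are SD (n = 2). The groups overlap for Cacna1h, Cacna1i and Hcn3, and the fold farthest from 1 is that of Cacna1g at 0.893.

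Cacna1g encodes the α1G subunit, the main T-type channel of thalamic relay neurons. Its GRCm38 position is chr11:94408391-94474198 (minus strand), with no exon shared with another annotated gene. Cacna1g measured 217 and 196 CPM in isolated libraries, against 222 and 241 CPM in group-housed libraries. Both values of the isolated pair were below those of the other, and isolated replicate 2 was lowest. The gap between isolated replicate 1 and group-housed replicate 1 was smaller than the gap within either group. The means were 207 ± 15.0 CPM in isolated and 232 ± 13.8 CPM in group-housed libraries (SD, n = 2 each), a fold of 0.893 with a 95% interval of 0.791 to 1.01 (log2 fold change -0.16, SE 0.08). The edgeR adjusted p was 0.979.

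The order of Cacna1g over the libraries was also that of the median thalamus marker, though not of their summed CPM. Relative to each gene's mean log2 level, Cacna1g stood at -0.0082 and -0.16 in isolated and 0.02 and 0.14 in group-housed libraries. The median of the 14 thalamus markers tested stood at 0.05 and -0.37 in isolated and 0.11 and 0.24 in group-housed libraries. The part of thalamic tissue in the Cacna1g level was not tested. Isolated replicate 2 had the lowest median not only of thalamus markers but also of lateral habenula, neuron and microglia markers. Without isolated replicate 2 the log2 fold change of Cacna1g was -0.09, and without isolated replicate 1 it was -0.24.

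Cacna1i encodes the α1I subunit, a slowly inactivating T-type channel found in neurons of the brain. Its GRCm38 position is chr15:80287238-80398279 (plus strand). Cacna1i measured 188 and 173 CPM in isolated libraries, against 205 and 182 CPM in group-housed libraries. The groups overlapped, since isolated replicate 1 exceeded group-housed replicate 2. The fold was 0.932 (95% interval 0.823 to 1.06, log2 fold change -0.10, SE 0.08, edgeR adjusted p = 0.9998).

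Cacna1h encodes the α1H subunit, known for its role in pain-sensing neurons, at chr17:25374285-25433783 (minus strand). It was the least expressed of the 6 genes in CPM. Cacna1h measured 32.1 and 32.2 CPM in isolated libraries, against 28.6 and 33.3 CPM in group-housed libraries. Both isolated libraries fell between the group-housed ones. The fold was 1.04 (95% interval 0.897 to 1.196, log2 fold change 0.05, SE 0.09, edgeR adjusted p = 0.9998), and the log2 fold change was -0.05 without group-housed replicate 1. Its exons share 158 bases with Tpsg1 on the opposite strand, which had 1 to 3 counts per library beside 587 to 858 for Cacna1h.

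**Figure D2:**
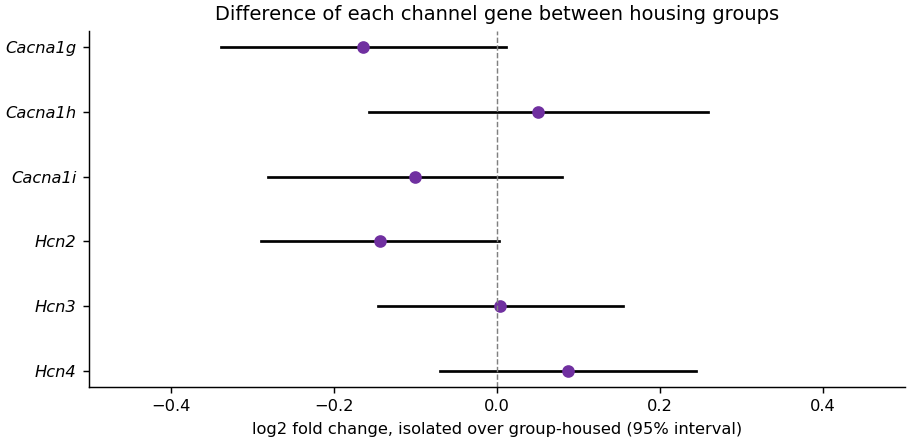
Log2 fold change (horizontal axis, isolated over group-housed) of each channel gene, with points for the estimate from edgeR's quasi-likelihood fit and lines for its 95% interval. All 6 intervals include 0, and those of Cacna1g and Hcn2 reach it only at their upper ends, at 0.01 and 0.0023.

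Hcn2 encodes the HCN subunit that is most widespread in the brain, including thalamus. Its GRCm38 position is chr10:79716634-79736108 (plus strand). Hcn2 measured 172 and 176 CPM in isolated libraries, against 198 and 187 CPM in group-housed libraries. Here too the isolated pair was the lower one, without overlap. The means were 174 ± 2.49 CPM in isolated and 192 ± 8.16 CPM in group-housed libraries (SD, n = 2 each), a fold of 0.905 with a 95% interval of 0.819 to 1.002 (log2 fold change -0.14, SE 0.06). Its unadjusted p of 0.0529 was the smallest of the 6 genes, ranked 947 of the 17528 genes tested, and its edgeR adjusted p was 0.974. Oligodendrocyte markers, of which all 10 had lower means in isolated libraries, summed to 9967 and 11678 CPM in isolated and 13115 and 12136 CPM in group-housed libraries. They were not alone in this. Lower means were also found for 6 of 6 microglia, 7 of 9 astrocyte and 6 of 8 neuron markers. Among all 17528 genes tested, 8547 had lower means. The part of any of these cell types in the Hcn2 level was not tested.

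Hcn4 encodes the slow, strongly cyclic AMP-dependent subunit of the cardiac pacemaker, which is also made in thalamus and medial habenula. Its GRCm38 position is chr9:58823412-58863175 (plus strand). Hcn4 measured 71.0 and 64.8 CPM in isolated libraries, against 63.8 and 64.0 CPM in group-housed libraries. The isolated pair was the higher one, but isolated replicate 2 did so by less than the spread within its own group. The fold was 1.06 (95% interval 0.953 to 1.18, log2 fold change 0.09, SE 0.07, edgeR adjusted p = 0.9998). Without isolated replicate 1 the log2 fold change was 0.02. Medial habenula markers also lay higher in isolated libraries, with a summed level of 2580 and 2544 CPM, against 2180 and 2027 CPM in group-housed libraries, and the isolated pair was the higher one for 9 of 12, beside 17.4% of all tested genes. Among these markers are Slc5a7 and Chrnb3 (log2 fold changes 0.65 and 0.85, edgeR adjusted p = 0.0227 each), the 2 genes called among all those tested. Medial habenula markers were not alone in this direction. Higher means were also found for 8 of 8 ependyma and 5 of 8 hippocampus and cortex markers tested, beside 8981 of all 17528 genes tested. Thalamus markers went the other way, with lower means in isolated libraries for 12 of 14 and a median log2 fold change of -0.38. The part of any of these tissues in the Hcn4 level was not tested.

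Hcn3 encodes a subunit with little response to cyclic AMP at chr3:89146074-89160196 (minus strand). It was the most even of the 6 genes. Hcn3 measured 64.7 and 60.7 CPM in isolated libraries, against 63.3 and 61.8 CPM in group-housed libraries. Both group-housed libraries fell between the isolated ones. The fold was 1.003 (95% interval 0.904 to 1.11, log2 fold change 0.0041, SE 0.07, edgeR adjusted p = 0.9998), and the log2 fold change was -0.02 without group-housed replicate 2 and -0.04 without isolated replicate 1. Hcn3 shares 711 exon bases with Pklr on the opposite strand, which had 4 to 11 counts per library beside 1300 to 1700 for Hcn3.

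The groups did not overlap for 3 of the 6 genes. The isolated pair was the higher one for Hcn4, 1 gene, beside 17.4% of all tested genes, and the lower one for Cacna1g and Hcn2, 2 genes, beside 16.3%. Counts of 1 and 2 among 6 genes are too small to be read against these shares of all genes, and they were not tested.

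Per unit of transcript length, Hcn2 was the leading gene of the set. Levels were compared as CPM per kilobase of annotated exon (RPKM). Hcn2 averaged 54.5 ± 0.780 RPKM in isolated and 60.2 ± 2.55 RPKM in group-housed libraries (SD, n = 2 each), above 95.5% of the 14711 protein-coding genes tested. Cacna1g followed with 20.4 ± 1.48 RPKM in isolated and 22.8 ± 1.36 RPKM in group-housed libraries, and Cacna1i with 18.3 ± 1.07 RPKM in isolated and 19.6 ± 1.69 RPKM in group-housed libraries. Hcn3 averaged 15.1 ± 0.671 RPKM in isolated and 15.1 ± 0.256 RPKM in group-housed libraries. Hcn4 averaged 11.1 ± 0.715 RPKM in isolated and 10.4 ± 0.0156 RPKM in group-housed libraries. Cacna1h was last, with 3.29 ± 0.0077 RPKM in isolated and 3.17 ± 0.345 RPKM in group-housed libraries, above 33.9% of protein-coding genes. Neighbours in this order were apart in every library except Cacna1g and Cacna1i, whose ranges of 19.4 to 23.8 and 17.5 to 20.8 RPKM overlapped, although Cacna1g was 1.05 to 1.29 times Cacna1i within each library.

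The T-type sum was shared mainly by 2 genes. Cacna1g made up 49.0 and 48.2% of the summed T-type RPKM in isolated and 48.0 and 52.2% in group-housed libraries. Cacna1i made up 43.5 and 43.6% in isolated and 45.6 and 40.4% in group-housed libraries, and Cacna1h 7.51 and 8.20% in isolated and 6.42 and 7.48% in group-housed libraries. Cacna1h was the T-type gene whose shares did not overlap between groups, by a narrow margin between 7.51 and 7.48%. This was not tested, and CPM levels did not overlap for 17.4% of all tested genes as higher and 16.3% as lower. The summed T-type level was 43.8 and 40.2 RPKM in isolated and 45.63 and 45.65 RPKM in group-housed libraries.

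Hcn2 held most of the sum of Hcn2, Hcn3 and Hcn4. Its share was 66.5 and 68.6% in isolated and 70.7 and 69.7% in group-housed libraries. Hcn3 held 19.2 and 18.2% in isolated and 17.4 and 17.8% in group-housed libraries, and Hcn4 14.3 and 13.2% in isolated and 11.9 and 12.5% in group-housed libraries. For each of the 3 genes the shares of the groups did not overlap, with Hcn2 lower and Hcn3 and Hcn4 higher in isolated libraries. Separation of this kind is common, since CPM levels did not overlap for 17.4% of all tested genes as higher and 16.3% as lower. Shares of a sum depend on each other, so these are not 3 separate differences, and they were not tested.

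**Figure D3:**
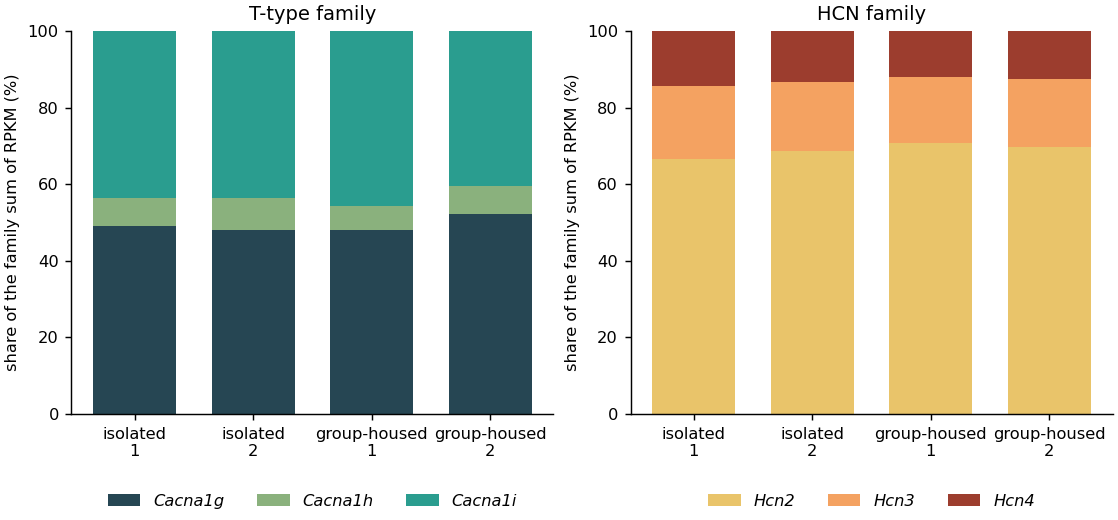
Share of each gene in the family sum of RPKM (vertical axes, percent) in every library, for the 3 T-type genes (left) and for Hcn2, Hcn3 and Hcn4 (right). Cacna1g and Cacna1i fill most of the T-type sum in all 4 libraries, and Hcn2 fills 66.5 to 70.7% of the sum at right.

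Proteins that bind these channels or act on them showed no call. Of 18 partner genes listed, 16 had enough counts to be tested. In the edgeR test 0 passed in either direction, 1 had an unadjusted p under 0.05 as higher (Klhl1) and 1 as lower (Mrvi1), beside 2.83 and 2.26% of all tested genes. The median log2 fold change was -0.05, with 7 higher and 9 lower. The isolated pair was the lower one without overlap for 7 of the 16, beside 16.3% of all tested genes. It was the higher one for 2, beside 17.4%, and neither count was tested. DESeq2 and limma-voom called 0 of the 16, and edgeR's exact test called Mrvi1 lower (adjusted p = 0.0041).

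Mrvi1 encodes IRAG, a protein known for its part in cyclic GMP signalling that also binds and modulates HCN4. Mrvi1 measured 4.98 and 5.02 CPM in isolated libraries, against 8.57 and 8.98 CPM in group-housed libraries. The isolated pair was far below the other, with a log2 fold change of -0.81 (SE 0.15) and an edgeR quasi-likelihood adjusted p = 0.246. Its exons share 108 bases with Gm16336 on the opposite strand, which had 0 counts. Lrmp, which encodes a related protein that also binds HCN4, was near the limit of detection at 0.571 and 0.792 CPM in isolated and 0.584 and 0.894 CPM in group-housed libraries.

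Pex5l encodes TRIP8b, the subunit that sets surface traffic and cyclic AMP sensitivity of HCN channels. Pex5l measured 180.2 and 182 CPM in isolated libraries, against 202 and 192 CPM in group-housed libraries (log2 fold change -0.12, SE 0.06, edgeR adjusted p = 0.979). As for Hcn2, the isolated pair was the lower one without overlap, beside 16.3% of all tested genes. Klhl1, whose actin-binding product raises T-type current, measured 58.6 and 49.5 CPM in isolated libraries, against 45.3 and 45.0 CPM in group-housed libraries (log2 fold change 0.26, SE 0.09, edgeR adjusted p = 0.840).

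Shox2, a homeobox transcription factor of pacemaker tissue in the heart and of thalamus, measured 45.3 and 30.7 CPM in isolated libraries, against 45.6 and 45.9 CPM in group-housed libraries. Its low value lay in isolated replicate 2, where the median thalamus marker was lowest too (-0.37 relative to its mean). The medians of lateral habenula (-0.15), neuron (-0.08) and microglia (-0.09) markers were also lowest in that library. The part of any of these in the Shox2 level was not tested. The log2 fold change was -0.27 (edgeR adjusted p = 0.979), it was -0.02 without isolated replicate 2, and it was -0.58 without isolated replicate 1. Its exons share 153 bases with Rsrc1 on the opposite strand, a gene with 2051 to 2518 counts per library, so its value is uncertain to that extent.

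Calm2 and Calm3 encode calmodulin, which senses calcium, and were the most abundant partners per length. Calm2 measured 428 and 421 CPM in isolated and 462 and 460.4 CPM in group-housed libraries, and Calm3 818 and 793 CPM in isolated and 849 and 826 CPM in group-housed libraries. The isolated pair was the lower one for both, beside 16.3% of all tested genes. Log2 fold changes were -0.12 for Calm2 (edgeR adjusted p = 0.979) and -0.06 for Calm3 (edgeR adjusted p = 0.9998). Kcne2, an HCN accessory subunit that is also a gene of choroid plexus, was too low to test. It had 3 and 5 counts in isolated and 0 and 30 counts in group-housed libraries. The library with 30 counts was also the one with the highest choroid plexus markers, and the source of the Kcne2 counts was not tested.

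Genes that make or break down cyclic AMP, the ligand of HCN channels, went both ways. Of 19 genes tested 0 passed in the edgeR test, 6 had higher and 13 lower means, and the median log2 fold change was -0.03. At an unadjusted p under 0.05, 2 were higher (Pde1a and Adcy4) and 3 lower (Adcy1, Pde1b and Pde4b), beside 2.83 and 2.26% of all tested genes, and these 5 were picked out after their values were seen. Pde1a encodes a calcium- and calmodulin-dependent phosphodiesterase that breaks down cyclic nucleotides. Pde1a measured 92.8 and 97.9 CPM in isolated libraries, against 67.8 and 71.7 CPM in group-housed libraries (log2 fold change 0.45, SE 0.06, edgeR quasi-likelihood adjusted p = 0.166). The groups were far apart beside the gap within each. DESeq2 (adjusted p = 0.0032) and edgeR's exact test (3.49e-05) called Pde1a higher, and limma-voom did not (0.204). With 1 library left out, whether Pde1a was called depended on the library.

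Adcy1, a calcium-stimulated adenylyl cyclase, measured 141 and 103 CPM in isolated libraries, against 155 and 159 CPM in group-housed libraries (log2 fold change -0.36, SE 0.12, edgeR adjusted p = 0.840). Isolated replicate 2 was again lowest, and without isolated replicate 1 the log2 fold change was -0.61, from a fit with 1 isolated library. The genes of this list with the highest level per length were Gnas, Gnal and Adcy5. Gnas and Gnal encode stimulatory G protein α subunits and had log2 fold changes of -0.08 and 0.0022. Adcy5 encodes an adenylyl cyclase and had one of -0.18. Their edgeR adjusted p ranged from 0.979 to 0.9998.

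Channels that set the resting potential, from which T-type and HCN channels are engaged, likewise gave 0 calls among 19 genes in the edgeR test and in DESeq2, limma-voom and edgeR's exact test. The median log2 fold change was -0.03, with 8 higher and 11 lower. At an unadjusted p under 0.05, 1 was higher (Kcnk9) and 2 lower (Kcnj3 and Kcnj16), beside 2.83 and 2.26% of all tested genes, picked out after their values were seen. Kcnj10 encodes the inward rectifier Kir channel of astrocytes, which clears potassium around habenular neurons and was the most abundant of the list per length. Kcnj10 measured 835 and 743 CPM in isolated libraries, against 961 and 765 CPM in group-housed libraries (log2 fold change -0.13, SE 0.12, edgeR adjusted p = 0.9998), and the groups overlapped. Kcnk1, a leak potassium channel gene, and Unc80, a subunit of the sodium leak channel, had log2 fold changes of -0.05 and -0.03.

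**Figure D4:**
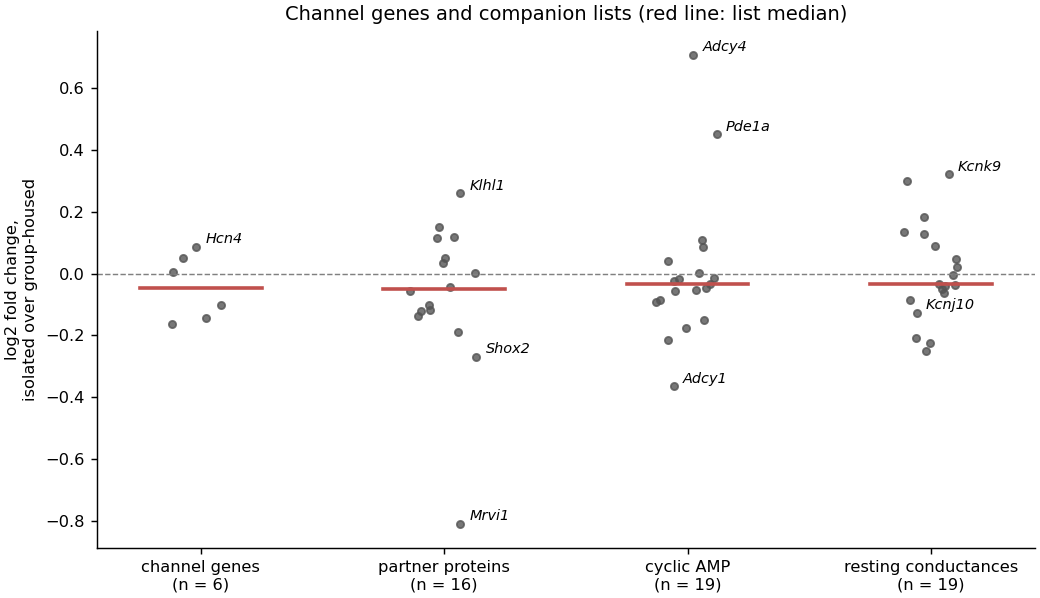
Log2 fold change (vertical axis, isolated over group-housed) of the 6 channel genes and of the tested genes of 3 companion lists; each point is a gene and red lines are list medians. List medians lie between -0.05 and -0.03, and the points farthest from 0 are Mrvi1 at -0.81, Adcy4 at 0.71 and Pde1a at 0.45.

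The pattern of each gene over the 4 libraries was set against that of 10787 genes with a mean of at least 10 CPM. Likeness was the Euclidean distance between log2 levels centred on each gene's mean over the 4 libraries. Nearest to Cacna1g were Bclaf3 (distance 0.01), Gabrg3 (0.02) and Nrip3 (0.02), and nearest to Cacna1i were Ttc33, Med6 and Cbfa2t3 (0.0063 to 0.01). Nearest to Cacna1h were A730017L22Rik, Slc7a6os and Heg1 (each 0.02). Nearest to Hcn2 were Tppp, Zmpste24 and Rpl9 (0.0053 to 0.01). Nearest to Hcn3 were Icmt, Cltc and N4bp2l2 (0.0037 to 0.0066), and nearest to Hcn4 were Dock4, Trappc8 and Tceal3 (0.0064 to 0.0093). Such likeness is common, since between 209 genes (Cacna1g) and 3275 genes (Hcn3) lay within a distance of 0.1. Within the set the closest pair was Hcn3 and Hcn4 (0.09) and the farthest Cacna1h and Cacna1i (0.33).

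**Figure D5:**
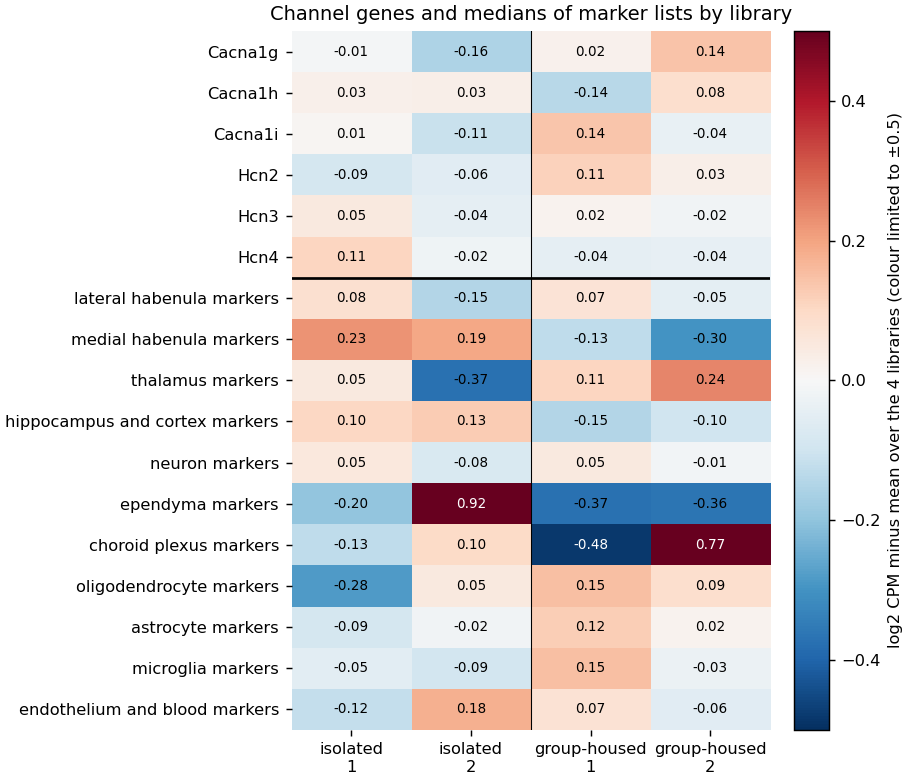
Log2 CPM minus the mean over the 4 libraries for each channel gene (top 6 lines) and the median of the same value over each marker list (lower lines), by library. The channel genes stay between -0.16 and 0.14, while marker lists of neighbouring tissue reach 0.92 for ependyma in isolated replicate 2 and 0.77 for choroid plexus in group-housed replicate 2.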

How the data were processed

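The authors deposited raw read counts per Ensembl gene for all 4 libraries, and per library a normalised signal that equals each count multiplied by 1 constant. Trizol was used for the RNA and the TruSeq Stranded mRNA LT kit for the libraries, per the labels' protocols. Per the submitters' processing notes, CASAVA, TopHat2 2.1.1, HTSeq, edgeR and GRCm38 were used; their roles, the strand setting and the annotation release are not stated there.

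Symbols, positions and exon lengths came from GENCODE M21 (GRCm38), which matched 53360 of 53465 identifiers, and promoters from RefSeq (GRCm38.p6), with 3 of the 6 genes matched. Counts were filtered with filterByExpr, scaled by TMM and tested with edgeR 4.0.16 in R 4.3.3 (2-sided quasi-likelihood test, no covariate, Benjamini-Hochberg adjustment over 17528 genes, threshold 0.05). Intervals used the standard error (log2 fold change over the root of F) and a t quantile with 8.55 degrees of freedom. Centred log2 levels used a prior count of 2. DESeq2 1.42.0 and limma 3.58.1 were alternatives. At these depths 3 counts equal 0.113 to 0.146 CPM. Replicates of a group differed by more than counting noise (chi-square per degree of freedom 7.01 for isolated and 4.77 for group-housed), so none was taken as the same library sequenced again. This cannot tell separate animals from separate preparations of the same tissue. The fit was tested on simulated data. Beside the genes with overlaps given in the text, Pex5l, Lrmp, Gnas, Gnal, Kcnk1 and Kcnj3 share exon bases with another annotated gene, which leaves their counts uncertain. The same holds for A730017L22Rik, Heg1, Ttc33, Cbfa2t3, Zmpste24 and Icmt, which were named for their pattern.

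The 6 genes and the lists of partners and markers were chosen with earlier results of these data known. Named are the 6 genes, of each companion list those passing the test and the 3 highest per length, 6 genes with a known link to the channels (Pex5l, Kcne2, Mrvi1, Lrmp, Klhl1 and Shox2), and the 3 genes nearest in pattern to each of the 6. Some genes that this rule names are not reported here.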

Additional observations from a re-analysis of the deposited data

How the results depend on the processing

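No channel gene was called under any alternative run (smallest adjusted p = 0.266, Cacna1g without isolated replicate 1). Leaving out 1 library in turn gave log2 fold changes of -0.24 to -0.09 for Cacna1g, -0.053 to 0.16 for Cacna1h, -0.20 to -0.01 for Cacna1i, -0.20 to -0.099 for Hcn2, -0.043 to 0.049 for Hcn3 and 0.019 to 0.15 for Hcn4, and the other settings reversed none of the 6. All-gene counts moved more than the channel genes: leaving out 1 library gave 0 to 151 genes higher and 0 to 70 lower, the high ends without isolated replicate 1; no low-count filter gave 15 higher, DESeq2 42 higher and 11 lower, and the exact test of edgeR 67 and 15. With the replicate number as a block, 52 genes were higher and 12 lower, and Mrvi1 (adjusted p = 0.0424) and Pde1a (0.0090) were called. The labels do not tie same-numbered libraries to each other (correlation of their deviations 0.12 over 10796 genes). With the longest transcript as length, Cacna1g held 52.5% (isolated) and 54.0% (group-housed) of the T-type sum, Cacna1i 39.2% and 38.7%, and Hcn3 18.1% of the group-housed HCN sum. Without 1 library the median log2 fold change ran from -0.096 to -0.024 for partners, from -0.12 (without isolated replicate 1) to 0.060 (without isolated replicate 2) for cyclic AMP genes and from -0.11 to 0.042 for resting conductances. The sign of genes near 0 changed without 1 library for Gnal (-0.055 to 0.057), Kcnj10 (-0.29 to 0.046), Kcnk1 (-0.15 to 0.042), Lrmp (-0.39 to 0.21) and Unc80 (-0.16 to 0.083), and for Gnal also with RLE size factors (-0.0010), no filter (-0.00014) and DESeq2 (-0.0010). The cause of these shifts was not tested. A fit without 1 library keeps only 1 library in a group, so its p-values and calls rest on no spread within that group. Depth gave the 6 genes at least 587 counts in every library, while Kcne2 and Lrmp were too low for a firm value.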
